A study of Xenopus laevis with 10 samples.

Results

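The circadian clock genes described here were 19 of the 34513 genes measured in the intestinal tubes of fed and unfed Xenopus laevis tadpoles. They were chosen by the deposited description of each transcript, which had to name a period protein, a cryptochrome, BMAL1 (ARNTL), CLOCK, a receptor of nuclear receptor subfamily 1 group D (REV-ERB) or the ubiquitin-specific peptidase USP2. Of these, 17 had enough counts to be tested, and every count below is over these 17. The other 2 were CLOCK-like transcripts with 1 and 4 counts over all 10 libraries. Xenopus laevis is an allotetraploid, so that many genes have a copy on a long (.L) and on a short (.S) chromosome. The tested genes were per1.L, per2.L, per3.L and per3.S, cry1.L, cry2.L and cry2.S, arntl.S, clock.L and clock.S, nr1d1.L, usp2.L and usp2.S, and 4 genes without a gene symbol. The latter are called here by their RefSeq locus names: LOC108712584, described as cryptochrome-1, LOC108702483, described as NR1D member 1-like, and LOC108718924 and LOC108719956, both described as NR1D member 2-like. The description of the 2 usp2 genes names a ubiquitin carboxyl-terminal hydrolase 2-like protein, and arntl.L was left out because its deposited description does not name a protein.

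The vertebrate clock is a feedback loop of transcription. CLOCK and BMAL1 form a dimer that binds E-boxes and activates, among others, the period and cryptochrome genes, whose proteins return to the nucleus and inhibit the dimer. The REV-ERB receptors, activated by the same dimer, repress the BMAL1 gene in a second loop, and USP2, a deubiquitinase, acts in the mouse on clock proteins including PER1. In mammals the clock of the intestine and liver follows mealtimes as well as light, so that feeding can shift the hour of its peaks.

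RNA was sequenced from pools of 20 to 26 tubes of tadpoles raised at 19 °C. There were 5 fed and 5 unfed libraries in 2 experiments. Fed and unfed tubes were paired by the age in their titles. These were 1 library each at 10 and 13 days post fertilization (dpf) in experiment 1. Experiment 2 had 1 library each at 10, 13 and 16 dpf. The stage field instead gives 10 dpf for both fed and 13 dpf for both unfed libraries of experiment 1. No genetic change or other treatment is given for any group. The labels used here give neither the hour of collection nor the light cycle nor the diet, so a change in the level of a rhythmic transcript and a shift of its phase cannot be told apart in any result below. Nor do they say whether libraries came from separate clutches or tanks, and p-values then measure only the spread between these libraries.

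Gene totals ran from 7093756 to 10067661 counts per library. Levels are given as CPM, counts scaled to the library total after TMM normalization. Epithelial markers were present: vil1.L ranged from 433 to 1714 CPM, fabp2.L from 274 to 4403 CPM and cdx2.L from 19.8 to 35.8 CPM over the 10 libraries. Lower were cdx2.S at 8.46 to 22.0 CPM, cdx1.S at 13.5 to 25.4 CPM and cdx1.L, near the floor at 0.246 to 1.08 CPM. Markers of other cells also differed with feeding, most of all those of leukocytes. Of 11 leukocyte genes 10 were lower in fed tubes (0.0118% to 0.0158% of counts, against 0.0218% to 0.0481% in unfed tubes) and 0 were higher. Of the smooth muscle markers 5 of 10 tested were higher and 0 lower (0.753% to 1.51% of counts in fed and 0.688% to 1.23% in unfed tubes). Of the enteric neuron markers 0 of 9 were higher and 3 lower (0.00511% to 0.0073% and 0.00671% to 0.00824%). Of 15 epithelial genes tested 3 were higher and 1 lower (1.10% to 1.47% in fed and 0.496% to 1.83% in unfed tubes). Among red cell, liver and pancreas genes 2 of 4, 2 of 5 and 1 of 6 were higher and 0 were lower, each list taking at most 0.0794% of counts in any library. The markers gcg.2.L, prss1.2.S, prss1.L and des.2.S had 3 counts or fewer in all. By the same test 24.6% of all genes were higher and 25.2% lower, and the marker lists were not tested against these shares. The percentages of counts in fed and unfed tubes overlapped for every list but that of leukocytes. The part of any shift in cell types in the differences below was not tested. Fewer cells of a type and less RNA per cell cannot be told apart in such pools.

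Feeding went with opposite differences within the clock (the plot of CPM by library). Over all ages 4 of the 17 genes were higher in fed tubes, namely both usp2 genes and both CRY1 genes, and 7 were lower, namely per3.S, both cry2 copies and all 4 REV-ERB genes, by edgeR's quasi-likelihood test at an adjusted p under 0.05. The 6 others, per1.L, per2.L, per3.L, arntl.S, clock.L and clock.S, did not pass. Much of the transcriptome differed as well: 24.6% of the 23391 tested genes were higher in fed tubes and 25.2% lower, 49.8% in all, against 23.5% and 41.2% of the clock genes. The share of clock genes called higher was thus near that of all genes. Of the 7 called lower, LOC108702483 reached the count filter through unfed libraries alone, so that a call of higher was hardly open to it. The median log2 fold change, fed minus unfed, was -0.37 over the clock genes and -0.03 over all genes.

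**Figure D1:**
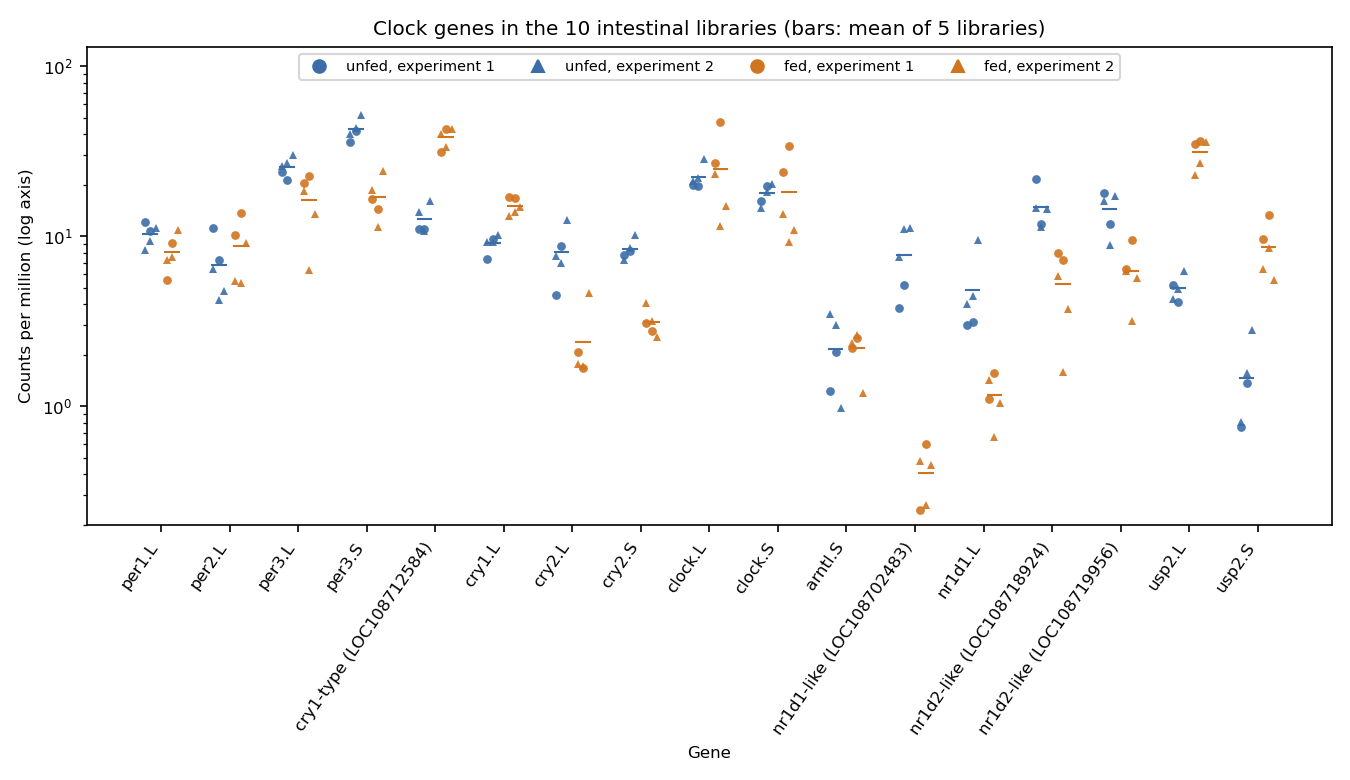
CPM (log axis) of the 17 tested clock genes in each of the 10 libraries, fed in orange and unfed in blue, circles for experiment 1 and triangles for experiment 2, with bars at the mean of 5 libraries. The fed points of usp2.L, usp2.S, cry1.L and LOC108712584 all lie above the unfed ones, and those of per3.S, cry2.S, LOC108702483, nr1d1.L and LOC108718924 all lie below.

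The period genes encode inhibitors of the dimer of CLOCK and BMAL1. In each sentence on a gene, the values of an experiment follow the ages 10, 13 and, in experiment 2, 16 dpf. per3.S was measured at 36.1 and 41.5 CPM (experiment 1) and 40.0, 43.6 and 51.6 CPM (experiment 2) in unfed tubes, against 16.5 and 14.6 CPM and 18.6, 11.4 and 24.3 CPM in fed tubes. No fed library reached the lowest unfed one, and the gene fell, with a log2 change of -1.34 ± 0.15 (SE, adjusted p 6.24e-05), from 42.6 ± 5.77 to 17.1 ± 4.85 CPM (SD, n = 5). Its other copy, per3.L, had 23.8 and 21.4 CPM (experiment 1) and 26.0, 27.0 and 30.1 CPM (experiment 2) in unfed tubes, against 20.7 and 22.8 CPM and 18.5, 6.34 and 13.5 CPM in fed tubes. The groups of per3.L overlapped: in experiment 1 the log2 ratio of fed to unfed tubes was -0.20 and 0.09, while in experiment 2 every fed library was lower, most so at 13 dpf. The log2 fold change of per3.L was -0.69 ± 0.28 (SE, adjusted p 0.0664), which missed the threshold. It passed without the fed 13 dpf library of experiment 1 (-0.91, adjusted p 0.0237) or without the unfed 10 dpf library of that experiment (-0.87, adjusted p 0.0353). These are the libraries whose title and stage field give different ages.

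per1 and per2, whose mammalian homologues respond quickly to light and hormones, did not pass between fed and unfed tubes. per1.L had 5.54 and 9.16 CPM (experiment 1) and 7.24, 7.53 and 11.0 CPM (experiment 2) in fed tubes, against 12.1 and 10.7 CPM and 8.32, 9.40 and 11.3 CPM in unfed tubes. The fed library was the lower in all 5 pairs of the same age and experiment, but the groups overlapped, the difference at 16 dpf was -0.04 on the log2 scale, and the log2 change, -0.37 ± 0.17 (SE, adjusted p 0.0926), did not pass. per2.L had 10.2 and 13.7 CPM (experiment 1) and 5.46, 5.28 and 9.16 CPM (experiment 2) in fed tubes, against 11.2 and 7.25 CPM and 6.44, 4.25 and 4.76 CPM in unfed tubes. The fed libraries of experiment 1 were the highest but for 1 unfed library of that experiment. per2.L was the sole clock gene called between experiments, lower in experiment 2 with a log2 difference of -0.98 ± 0.23 (SE, adjusted p 0.0377), where 4.73% of all genes were called and 2.44% were lower. Its difference between fed and unfed tubes was 0.37 ± 0.21 (SE, adjusted p 0.153). This call between experiments was lost in 7 of the 10 fits that left out 1 library (adjusted p 0.0508 to 0.132), that is in all but those without the fed 10 dpf library of experiment 1 or either 16 dpf library.

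The cryptochromes, flavoproteins that inhibit CLOCK and BMAL1 together with the period proteins, parted by type. LOC108712584, the CRY1 gene with the larger difference, had 31.4 and 42.9 CPM (experiment 1) and 40.1, 33.7 and 42.8 CPM (experiment 2) in fed tubes, against 11.0 and 11.0 CPM and 14.0, 10.7 and 16.1 CPM in unfed tubes. All fed values lay above all unfed values, and the log2 fold change was 1.62 ± 0.15 (SE, adjusted p 1.9e-05), a 3.06-fold rise. cry1.L was measured at 17.1 and 16.9 CPM (experiment 1) and 13.2, 13.9 and 14.9 CPM (experiment 2) in fed tubes, against 7.39 and 9.66 CPM and 9.26, 9.29 and 10.2 CPM in unfed tubes. Its groups did not overlap either, and it rose by 0.73 ± 0.15 (SE, adjusted p 0.00186), or 1.66-fold. The CRY2 genes went the other way. cry2.L had 4.55 and 8.82 CPM (experiment 1) and 7.65, 6.94 and 12.5 CPM (experiment 2) in unfed tubes, against 2.09 and 1.69 CPM and 1.78, 1.72 and 4.65 CPM in fed tubes. The fed library at 16 dpf, at 4.65 CPM, stood above the unfed library at 10 dpf of experiment 1, so that the groups overlapped, although the fed tube was lower in each pair; the gene fell, with a log2 change of -1.79 ± 0.23 (SE, adjusted p 0.00011). cry2.S was measured at 7.77 and 8.19 CPM (experiment 1) and 7.25, 8.50 and 10.2 CPM (experiment 2) in unfed tubes, against 3.08 and 2.77 CPM and 4.04, 3.17 and 2.55 CPM in fed tubes. Its fed libraries lay below all unfed ones, and it fell, with a log2 change of -1.42 ± 0.19 (SE, adjusted p 0.000154).

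The activators of the loop, in contrast, showed no difference that passed. clock.L had 27.0 and 47.1 CPM (experiment 1) and 23.1, 11.5 and 15.0 CPM (experiment 2) in fed tubes, against 20.2 and 19.7 CPM and 21.2, 22.0 and 28.7 CPM in unfed tubes. The fed libraries spread more widely than the unfed ones (11.5 to 47.1 CPM against 19.7 to 28.7 CPM), being above their unfed partners in experiment 1 and below them at 13 and 16 dpf in experiment 2. The log2 fold change was 0.06 ± 0.34 (SE, adjusted p 0.897). At 13 dpf the difference of clock.L, 0.35 ± 0.50 (SE, adjusted p 0.632), turned with the library left out, being -0.82 (adjusted p 0.0352) without the fed library of experiment 1 and 1.13 (adjusted p 0.00585) without that of experiment 2. clock.S had 23.9 and 33.9 CPM (experiment 1) and 13.5, 9.25 and 11.0 CPM (experiment 2) in fed tubes, against 16.1 and 19.8 CPM and 14.8, 18.3 and 20.3 CPM in unfed tubes. It shared the pattern of clock.L, with fed libraries high in experiment 1 and low in experiment 2, and its log2 fold change was -0.08 ± 0.27 (SE, adjusted p 0.816). arntl.S, a BMAL1 copy, had 2.22 and 2.53 CPM (experiment 1) and 2.37, 2.64 and 1.20 CPM (experiment 2) in fed tubes, against 1.23 and 2.10 CPM and 3.49, 3.02 and 0.972 CPM in unfed tubes. Its groups overlapped fully (log2 0.08 ± 0.26, adjusted p 0.811), and it rested on 183 counts in all. arntl.L, which the rule on descriptions leaves out, also did not pass, at 0.27 ± 0.35 (SE, adjusted p 0.547) and 2.18 ± 0.755 CPM in fed and 1.83 ± 0.578 CPM in unfed tubes (SD, n = 5).

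The REV-ERB genes were lower in fed tubes in all 5 pairs, each of the 4. LOC108702483, a REV-ERB-alpha-like gene, had 3.79 and 5.15 CPM (experiment 1) and 7.51, 11.1 and 11.3 CPM (experiment 2) in unfed tubes, against 0.246 and 0.602 CPM and 0.475, 0.264 and 0.450 CPM in fed tubes. It stood far apart in the groups, with 16 counts over the fed and 360 over the unfed libraries. The ratio of library-scaled counts was 18.8 (95% interval 11.4 to 33.2, counting error only). The log2 fold change of LOC108702483 was -4.12 ± 0.29 (SE, adjusted p 5.15e-06). At 2 to 5 counts per fed library, it reached the count filter through unfed libraries alone. A call of higher was thus hardly open to it. nr1d1.L had 3.03 and 3.15 CPM (experiment 1) and 4.03, 4.47 and 9.53 CPM (experiment 2) in unfed tubes, against 1.11 and 1.57 CPM and 1.42, 0.661 and 1.05 CPM in fed tubes. The groups did not overlap, with 46 counts in fed and 230 in unfed tubes, and the gene fell, with a log2 change of -1.92 ± 0.32 (SE, adjusted p 0.000595). Both genes of the REV-ERB-beta type also fell. LOC108718924 had 21.7 and 11.9 CPM (experiment 1) and 14.8, 11.3 and 14.6 CPM (experiment 2) in unfed tubes, against 8.01 and 7.23 CPM and 5.82, 1.59 and 3.75 CPM in fed tubes. It fell, with a log2 change of -1.54 ± 0.24 (SE, adjusted p 0.000441) and its groups did not overlap. LOC108719956 had 17.9 and 11.8 CPM (experiment 1) and 16.2, 8.95 and 17.2 CPM (experiment 2) in unfed tubes, against 6.41 and 9.52 CPM and 6.29, 3.17 and 5.70 CPM in fed tubes. Here the fed library at 13 dpf of experiment 1 exceeded the unfed library at 13 dpf of experiment 2, and the log2 fold change was -1.19 ± 0.23 (SE, adjusted p 0.00144). In experiment 1 alone nr1d1.L and LOC108719956 did not pass (adjusted p 0.0797 and 0.0727).

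The usp2 genes showed the highest fold changes upward. usp2.L had 34.7 and 36.6 CPM (experiment 1) and 23.0, 27.0 and 36.0 CPM (experiment 2) in fed tubes, against 5.21 and 4.10 CPM and 4.29, 4.92 and 6.22 CPM in unfed tubes. Every fed value was above every unfed value, and the log2 fold change was 2.66 ± 0.15 (SE, adjusted p 2.41e-06), a 6.30-fold rise and the smallest p of the clock genes. usp2.S had 9.61 and 13.4 CPM (experiment 1) and 6.41, 8.59 and 5.55 CPM (experiment 2) in fed tubes, against 0.758 and 1.37 CPM and 0.805, 1.57 and 2.82 CPM in unfed tubes. It rose by 2.57 ± 0.33 (SE, adjusted p 0.000158), but the difference at 16 dpf, 0.92 on the log2 scale, was below the 2.29 to 3.31 of the other 4 pairs. All 11 calls of the clock genes held in each of the 10 fits that left out 1 library.

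Per length of transcript the order of the levels changed with feeding. In unfed tubes per3.S was highest at 8.86 ± 1.20 CPM per kilobase (SD, n = 5), followed by clock.L at 7.29 ± 1.19, per3.L at 5.63 ± 0.723, LOC108718924 at 4.70 ± 1.31 and LOC108712584 at 4.66 ± 0.887. The first 2 lay within the sum of their SDs, and so did clock.L and per3.L and any 2 of the last 3. In fed tubes the means of LOC108712584 and usp2.L were the highest, at 14.2 ± 1.97 and 13.3 ± 2.58 CPM per kilobase, which overlap. clock.L (8.07 ± 4.55) and cry1.L (5.73 ± 0.666) came next. The difference of clock.L from LOC108712584, usp2.L or cry1.L also lay within the sum of the SDs. usp2.S was the lowest in unfed tubes (0.530 ± 0.303) with arntl.S (0.794 ± 0.401) next, and LOC108702483 the lowest in fed tubes (0.133 ± 0.0491).

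At 10 dpf 4 clock genes were higher and 7 lower in fed tubes, where 11.5% and 9.48% of all genes were called. These 11 were the genes called over all ages. At 13 dpf, where 16.9% and 14.8% of all genes were called, 3 were higher and 6 lower, with cry1.L (log2 0.69 ± 0.25, adjusted p 0.0503) and LOC108719956 (log2 -0.75 ± 0.34, adjusted p 0.109) missing the threshold. At 10 dpf, with 4 and 7 of 17, the shares of clock genes called higher and lower were both above those of all genes. At 13 dpf the share called lower was above that of all genes, and the share called higher, 3 of 17, was near it. At 10 dpf the number of clock genes called lower fell when any library of that age was left out, which leaves 1 library in an arm. The number of all genes called lower at 10 dpf fell in each of those fits as well. cry1.L, called higher in the main fit, lost its call in each of them, at log2 changes from 0.60 to 1.14. It was also not called without either unfed 13 dpf library (log2 0.86 in both fits). Without the experiment as a block 3 clock genes were called lower, and 740 of all genes in place of 2217. In that fit cry1.L was not called (edgeR adjusted p 0.0815). By DESeq2 cry1.L, cry2.S and nr1d1.L were not called at 10 dpf (adjusted p 0.0995, 0.0955 and 0.109). Of all genes DESeq2 called 1915 higher and 1281 lower at that age. With the age from the stage field, which leaves 1 unfed library at 10 dpf, the log2 changes of cry1.L, cry2.S and nr1d1.L were 0.67, -0.98 and -1.30. These 3 calls were lost there too. At 13 dpf the number called higher was 5 without the fed library of experiment 2, and the number called lower ranged from 4 without the unfed library of experiment 2 to 9 without the fed library of experiment 1. The highest fold changes of clock genes at both ages belonged to usp2.S (log2 3.35 ± 0.38, adjusted p 0.000467 at 10 dpf and log2 2.87 ± 0.34, adjusted p 0.0003 at 13 dpf) and usp2.L (2.59 ± 0.26 and 2.79 ± 0.26). The lowest was that of LOC108702483, at -3.90 ± 0.51 (SE, adjusted p 0.000898) and -4.08 ± 0.48 (SE, adjusted p 0.000303).

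**Figure D2:**
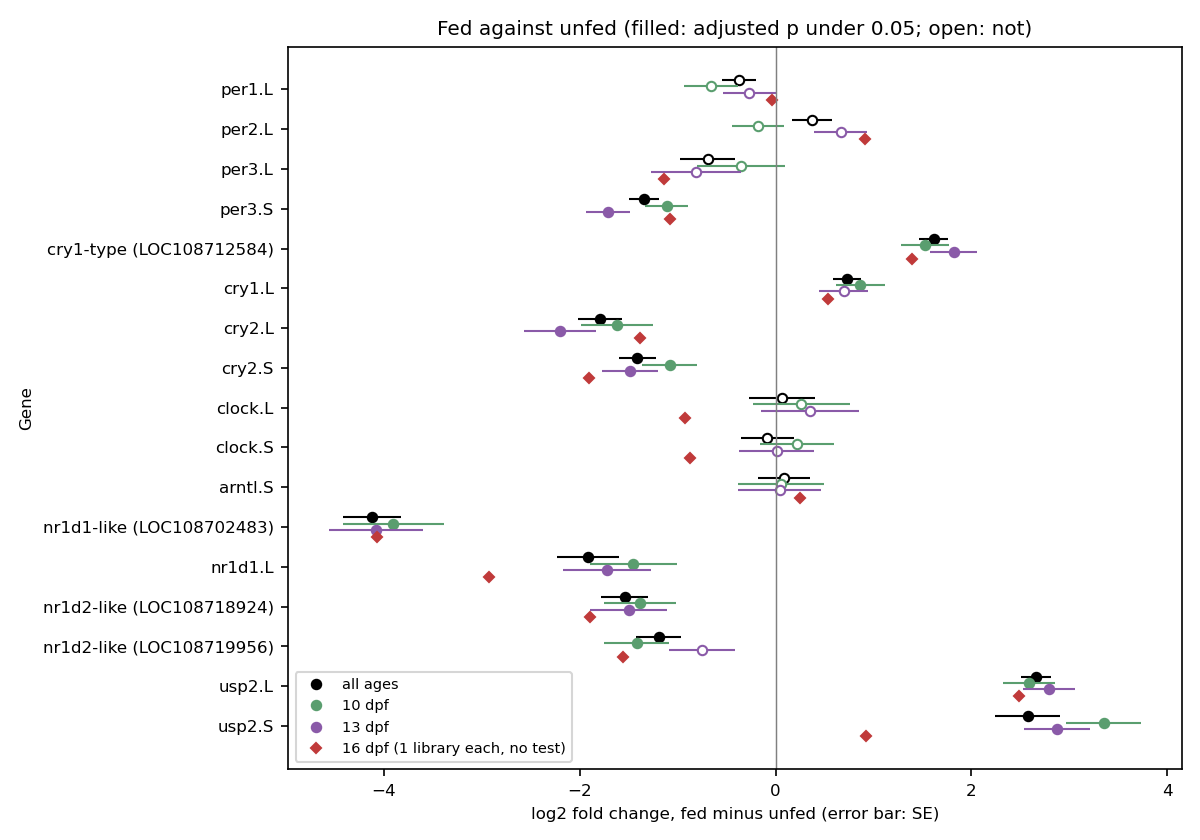
log2 fold change, fed minus unfed, of each tested clock gene with its SE, over all ages (black), at 10 dpf (green) and 13 dpf (purple), filled where the adjusted p is under 0.05, and the log2 ratio of the single pair at 16 dpf (red diamonds). The 4 REV-ERB genes lie left of 0 at every age, from -4.12 to -1.19 over all ages, and both usp2 genes lie right of it.

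At 16 dpf 1 fed and 1 unfed library were compared without a replicate. Past a log2 ratio of 1, 2 clock genes were higher in the fed tube, usp2.L at 2.49 and LOC108712584 at 1.39, and 8 were lower, against 11.0% and 14.9% of all genes. The 8 were per3.L, per3.S, both cry2 copies and the 4 REV-ERB genes, from -4.07 for LOC108702483 to -1.08 for per3.S. The groups of 5 and 5 libraries did not overlap for 4 genes that were higher and 5 that were lower, which happened for 15.3% and 13.9% of all genes. The fed library was higher in all 5 pairs for 4 clock genes and lower in all 5 for 8, against 24.5% and 25.5% of all genes.

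**Figure D3:**
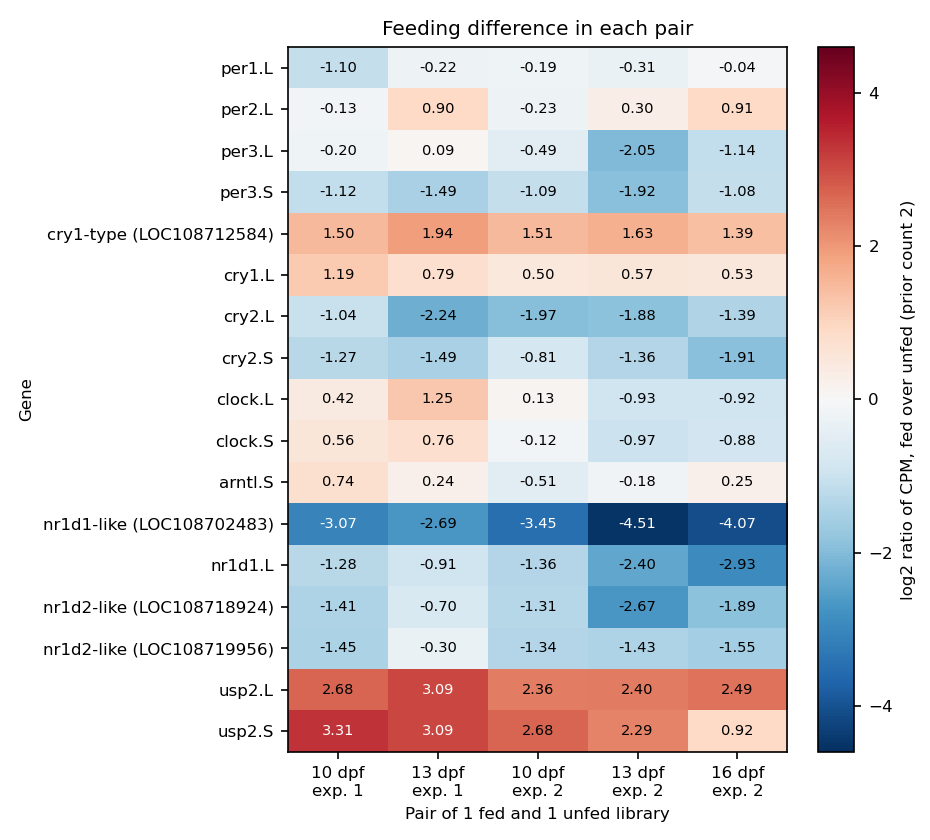
log2 ratio of CPM, fed over unfed, of each clock gene (rows) in the 5 pairs of libraries of the same age and experiment (columns), red where higher and blue where lower in the fed tube. The rows of clock.L and clock.S change sign between experiment 1 and the 13 and 16 dpf pairs of experiment 2.

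The feeding difference was not shown to change between 10 and 13 dpf for any clock gene. By edgeR 0 of 17 were called (0 of all genes, or 0%), and DESeq2 called 0 (13 higher and 9 lower of 21123 genes). By edgeR 1 clock gene had an unadjusted p under 0.05, as had 5.2% of all genes. That 1 was per2.L, whose difference was -0.18 ± 0.27 (SE, adjusted p 0.667) at 10 dpf and 0.66 ± 0.27 (SE, adjusted p 0.0802) at 13 dpf, a change of 0.84 ± 0.38 (SE, adjusted p 0.949). Between 13 and 10 dpf, 0 clock genes were called in unfed tubes (0.0128% of all genes) and 0 in fed tubes (0% of all genes). At an unadjusted p under 0.05 by edgeR stood 2 clock genes in unfed tubes (6.26% of all genes) and 0 in fed tubes (1.86%). DESeq2 called 0 clock genes in either. Of all genes it called 17 higher and 24 lower in unfed tubes, and 4 higher and 0 lower in fed tubes.

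Between the experiments the feeding difference of 15 of the 17 clock genes was lower in experiment 2 than in experiment 1, with a median of -0.64 against -0.04 over all genes. None passed the test of this difference (0 of 17, and 0% of all genes, with 4 at an unadjusted p under 0.05 by edgeR and 0 called by DESeq2). The 4 were clock.S (log2 -1.32 ± 0.34, adjusted p 0.423, unadjusted p 0.00224), clock.L (-1.42 ± 0.46, unadjusted p 0.0117), usp2.S (-1.45 ± 0.56) and per3.L (-1.11 ± 0.44). At an unadjusted p under 0.05 stood 6.77% of all genes, and DESeq2 called 31 of all genes higher and 74 lower. The 66 other tested genes listed below had a median of -0.28. With the age from the stage field the value was above 0 for LOC108712584, LOC108718924 (0.11), LOC108719956 (0.33), cry2.L, per2.L and per3.S. The last 3 were near 0 in the main fit (-0.01, -0.06 and -0.03) and changed sign in other settings too. LOC108712584 and LOC108719956, at -0.23 and -0.64 in the main fit, also changed sign without the fed 13 dpf library of experiment 1 (0.11 and 0.10). The share of all genes below 0 was not counted. At 13 dpf the fed libraries of the 2 experiments lay far apart, at 47.1 and 11.5 CPM for clock.L, 33.9 and 9.25 CPM for clock.S and 22.8 and 6.34 CPM for per3.L. A difference between the experiments includes any difference in the hour of sampling. It also includes any feeding difference particular to 16 dpf, an age of experiment 2 alone, since the fit had no term for feeding by age. For usp2.S the log2 ratio at 16 dpf was 0.92. Its other ratios were 3.31 and 3.09 in experiment 1 and 2.68 and 2.29 in experiment 2. The part of the 16 dpf pair was not tested.

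Of 7 pairs of clock genes described as the same protein, 2 differed in their ratio between fed and unfed tubes. This came from a limma fit of the log2 ratio of 2 copies over 5237 pairs of genes, added after the data had been seen, in which 23.4% of all pairs were called, a share near that of the clock genes. The ratio of cry1.L to LOC108712584 differed, fed minus unfed, by -0.88 ± 0.16 (SE, adjusted p 0.00791), the latter having risen more. The ratio of nr1d1.L to LOC108702483 differed by 1.78 ± 0.16 (SE, adjusted p 0.000989), the latter having fallen more, on a scale with a prior count of 2 that understates differences at low counts. The ratios of the per3, cry2, clock and usp2 copies and of the pair of NR1D2-like genes did not pass, the per3 ratio being 0.58 ± 0.26 (SE, adjusted p 0.134). Whether the genes paired by description are copies on the long and short chromosomes is not given in the sources used here, nor is how reads that fit both copies of a gene were counted.

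**Figure D4:**
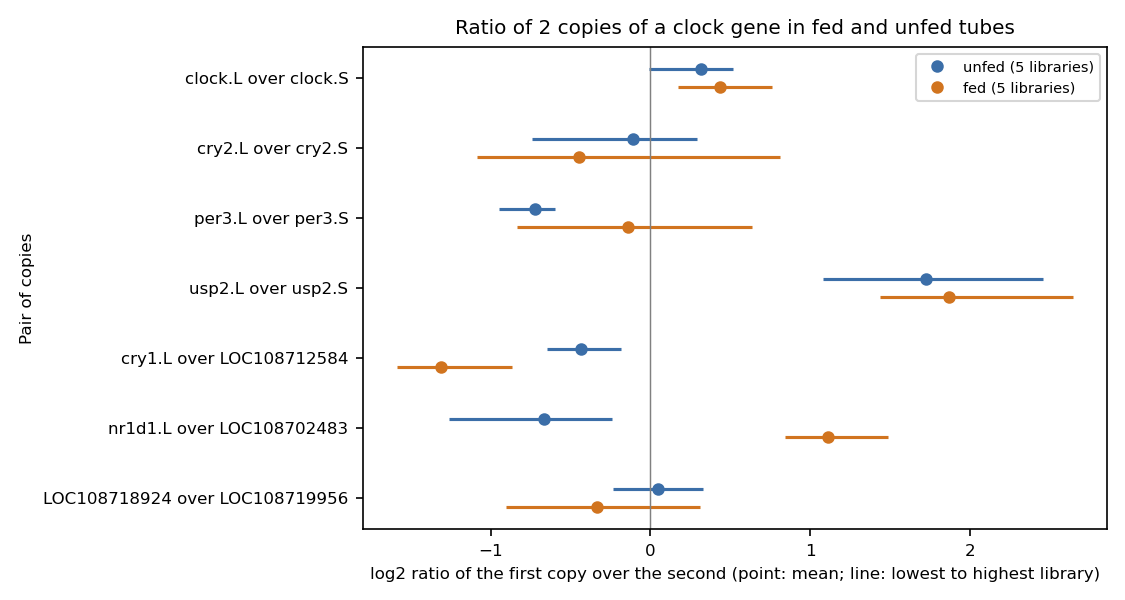
Mean log2 ratio of the first over the second gene of 7 pairs in fed (orange) and unfed (blue) libraries, with lines from the lowest to the highest of 5 libraries. The fed and unfed lines are apart for cry1.L over LOC108712584 and for nr1d1.L over LOC108702483, and overlap for the pairs other than these 2.

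Beyond these genes, 77 other genes of the clock and its inputs and outputs were listed, of which 66 could be tested. Over all ages 12 were higher and 11 lower in fed tubes, both smaller shares than those of all genes (24.6% and 25.2%), with a median log2 fold change of 0.01 (-0.03 over all genes). The 6 tested genes of the DBP, TEF and HLF family with NFIL3, output factors that bind D-boxes, held 3 lower and 0 higher. These were LOC108696680 and LOC108697746, both described as D site-binding protein-like (log2 -3.07 ± 0.54, adjusted p 0.000827, and log2 -1.79 ± 0.40, adjusted p 0.00364), and dbp.L (log2 -0.49 ± 0.13, adjusted p 0.0113). LOC108696680 had 0 to 0.356 CPM in fed and 0.805 to 2.33 CPM in unfed tubes, at 0 to 3 counts per fed library. LOC108697746 had 0.237 to 0.901 CPM in fed and 0.663 to 1.85 CPM in unfed tubes, which overlapped, at 2 to 6 counts per fed library. Both reached the count filter through unfed libraries alone, so that a call of higher was hardly open to them. tef.S, at 346 ± 25.8 CPM in fed and 342 ± 64.4 CPM in unfed tubes (SD, n = 5), did not pass (adjusted p 0.875). The list of DEC and CHRONO repressors held 3 tested genes, bhlhe40.L, bhlhe40.S and cipc.S, and no gene was found for CHRONO (ciart) or bhlhe41. Of these, cipc.S, an inhibitor of CLOCK, fell, with a log2 change of -0.87 ± 0.15 (SE, adjusted p 0.000673). The bhlhe40 genes did not pass.

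The list of light, cAMP and glucocorticoid inputs held 6 lower and 2 higher genes of 24, or 25.0% and 8.33%, so that the share called lower was near the 25.2% of all genes. Lower were 4 of the 6 tested genes of KLF9 and KLF15, Krüppel-like factors that glucocorticoids induce in mammals, namely klf15.S (log2 -1.99 ± 0.20, adjusted p 3.39e-05), klf15.L (log2 -3.15 ± 0.44, adjusted p 0.000714), klf9.L (log2 -2.99 ± 0.50, adjusted p 0.000906) and LOC108706970, described as Krüppel-like factor 9 (log2 -3.01 ± 0.54, adjusted p 0.00206). The other 2, klf15.2.L (log2 0.22 ± 0.34, adjusted p 0.611) and klf15.2.S (log2 -0.24 ± 0.27, adjusted p 0.49), did not pass. creb1.L (log2 -1.01 ± 0.37, adjusted p 0.0407) and crtc1.L (log2 -0.74 ± 0.18, adjusted p 0.00532), a CREB factor and a coactivator of CREB, were the remaining lower genes. The other copy, creb1.S, did not pass (log2 0.14 ± 0.12, adjusted p 0.353). Its mean was 19.8 CPM in fed and 18.1 CPM in unfed tubes, against 1.04 and 2.16 CPM for creb1.L. creb1.L had 5 to 11 counts per fed library and klf9.L 1 to 10, and both reached the count filter only with unfed libraries. crtc1.S (adjusted p 0.0861) and the tested crtc2 and crtc3 genes did not pass either. Of the other glucocorticoid-induced genes, tsc22d3.L, tsc22d3.S, zbtb16.L and zbtb16.S did not pass (adjusted p 0.112, 0.269, 0.952 and 0.574). klf15.L had 1.05 to 6.04 CPM in fed and 26.9 to 45.7 CPM in unfed tubes, and LOC108706970 had 0.132 to 2.83 and 4.03 to 16.0 CPM. sgk1.S and sgk1.L, kinase genes with the same inducer, were in contrast higher (log2 0.96 ± 0.13, adjusted p 0.000163, and log2 0.86 ± 0.16, adjusted p 0.0014). Genes of this list thus differed in direction.

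Of 15 kinase and ubiquitin ligase genes acting on clock proteins, 4 were higher and 1 lower, or 26.7% and 6.67%, the former near the 24.6% of all genes, with csnk2b.S, a casein kinase subunit, at 0.70 ± 0.15 (SE, adjusted p 0.00256). All 4 genes of TIMELESS and its partner TIPIN, which in vertebrates act chiefly at replication forks, were higher, with tipin.L at 0.74 ± 0.14 (SE, adjusted p 0.0012). Of 11 outputs 2 were higher and 3 lower, or 18.2% and 27.3%, the share called lower being near the 25.2% of all genes. The 3 lower genes were the D-box factors above, and nampt.L, a gene of the rate-limiting enzyme of NAD salvage, was higher (log2 0.73 ± 0.13, adjusted p 0.00103). The other copy, nampt.S, did not pass (log2 0.19 ± 0.14, adjusted p 0.266), at means of 32.8 CPM in fed and 28.9 CPM in unfed tubes. The ROR genes rora.L and rora.S, activators that oppose REV-ERB, did not pass (adjusted p 0.168 and 0.597), and neither did any of the 4 photolyases and cryptochrome relatives or the 5 tested activators.

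**Figure D5:**
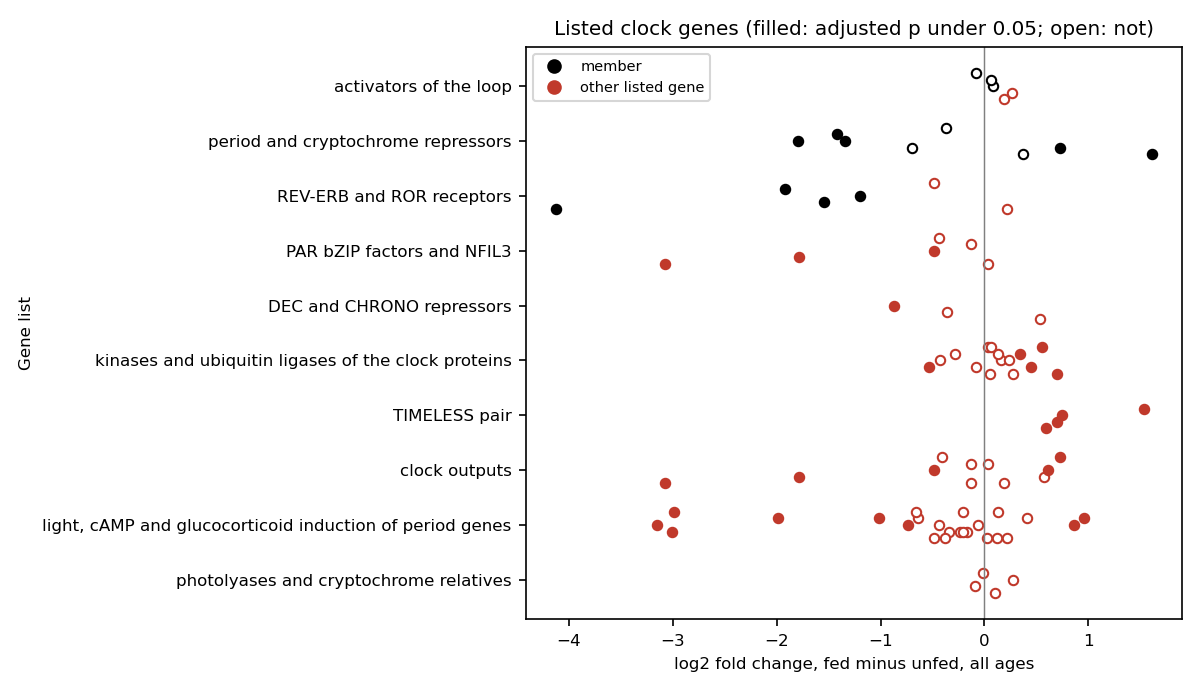
log2 fold change, fed minus unfed over all ages, of the tested genes of each list, clock genes chosen by description in black and other listed genes in red, filled where the adjusted p is under 0.05. The REV-ERB and D-box factor rows hold filled points below 0 alone, the TIMELESS row filled points above 0 alone, and the activator row none. Among the D-box points, LOC108696680 and LOC108697746 rest on few counts in fed tubes. The vertical offset within a row has no meaning.

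The clock gene with the smallest p, usp2.L, was compared with all other tested genes over the 10 libraries. The 5 genes with the smallest mean absolute difference between centred log2 CPM profiles were atad3a.S, a mitochondrial ATPase gene, hspa5.S and hspa5.L, which encode the endoplasmic reticulum chaperone BiP, dnajb9.S, a cochaperone of BiP, and thap5.S. Their differences from usp2.L averaged 0.23 to 0.28 on the log2 scale, and their log2 fold changes ran from 2.18 for dnajb9.S to 2.87 for atad3a.S. The profiles hold the difference between fed and unfed tubes, so fold changes near the 2.66 of usp2.L follow from the choice of these genes. A link between usp2.L and these genes was not tested.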

How the data were processed

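RNA was sequenced from 10 pools of intestinal tubes. The authors used HISAT2 and featureCounts, per the submitters' processing notes, whose versions and genome build were not given in the sources used here. Raw counts of 63876 transcripts were taken from the deposited tables, and 10 deposited RPKM columns were left aside. The transcript with the most counts stood for its gene, 26905 of 34513 genes being named through a RefSeq table (Xenopus_laevis_v10.1, names only). Rows with a blank name held 0.0738% of counts and named rows without an accession 0.136%, and both were left out. Titles gave the ages, which differ from the stage field for 2 libraries of experiment 1. The field gives 10 dpf for the fed 13 dpf library and 13 dpf for the unfed 10 dpf library. Headers of experiment 1 marked F and NF were read as fed and unfed. The members and lists were chosen with earlier results of these data known, and some list genes were added by their deposited description. Every tested gene that fits the rule was named. Of other lists, the genes past the threshold were eligible, up to 12 by smallest p. The genes dbp.L, tef.S, arntl.L and nampt.S were named after their values were seen. So were the creb1, crtc, bhlhe40, klf15.2, tsc22d3, zbtb16 and rora genes. In R 4.3.3, edgeR 4.0.16 (filterByExpr, TMM factors 0.861 to 1.09, robust quasi-likelihood F test, Benjamini-Hochberg over 23391 genes, threshold 0.05) used terms for experiment, age and feeding, or for experiment and the 6 groups, tested on simulated data. Library-level log2 CPM used a prior count of 2. The experiment was a block because the labels divide the study by it; deviations of same-numbered libraries correlated across genes (r 0.339 to 0.538 over 6 pairs of groups). Copy ratios used limma 3.58.1, added after the data had been seen. DESeq2 1.42.0 and the other alternatives are given in the closing section.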

Additional observations from a re-analysis of the deposited data

Results flagged for a closer look

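In the fed 16 dpf library, cry2.L lay apart above the other 4 fed libraries at 2.29 log2 CPM (4.65 CPM). In the same library arntl.S lay apart below them at 0.52 log2 CPM (1.20 CPM). Chance sets a library apart in this way in about 1 of 20 groups, and 17 genes were examined in each feeding state. The fed minus unfed difference of per2.L was below 0 in both pairs at 10 dpf and above 0 in both at 13 dpf. Its change of 0.84 (log2) did not pass (edgeR adjusted p 0.949). The difference of clock.S was above 0 in both pairs of experiment 1 (0.56 and 0.76) and below 0 in all 3 of experiment 2 (-0.12, -0.97 and -0.88). The change between experiments was -1.32 (edgeR adjusted p 0.423).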

How the results depend on the processing

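Of 2312 clock gene values over 19 alternative settings, 53 lost the call (38 of these at 10 dpf), 17 gained it and 1 passed with the opposite sign. The sign differed from the main value in 152, of which 0 had a main value that passed. Over all ages the sign changed for arntl.S, clock.L and clock.S, in 16 values. All 7 lower and 4 higher calls over all ages kept their direction, and those lost were nr1d1.L and LOC108719956 in experiment 1 alone. The value that passed with the opposite sign was clock.L at 13 dpf, at -0.82 (adjusted p 0.0352) without the fed 13 dpf library of experiment 1 and 1.13 (adjusted p 0.00585) without that of experiment 2. per2.L passed over all ages with a transcript length trend removed (0.65, adjusted p 0.0207), and clock.S in experiment 2 alone (-0.64, adjusted p 0.0453). per3.L passed over all ages with the age from the stage field (-1.10), by DESeq2 (-0.71) and in experiment 2 alone (-1.18). Without the experiment as a block 3 clock genes were lower at 10 dpf, not 7, and 740 of all genes, not 2217. With the length trend removed 5 clock genes were higher at 13 dpf, not 3, and 3774 of all genes, not 3956. The 1 call between experiments became 0 with the length trend removed and with counts summed over transcripts. Leaving out 1 library gave 1 to 7 lower genes at 10 dpf, 3 to 5 higher and 4 to 9 lower genes at 13 dpf, 0 to 1 lower genes between experiments and 0 to 1 for feeding by experiment. The higher call of cry1.L at 10 dpf was lost without any 1 library of that age, and without either unfed 13 dpf library. Leaving 1 library out of an arm at 10 or 13 dpf also lowered the number of all genes called at that age. The cause of these shifts was not tested. The block changed no all-ages call. Where an arm kept 1 library, it was assumed to vary like the other groups. In the all-ages comparison the median of all genes ran from -0.084 to -0.005. Among the 17 clock genes, low counts limit LOC108702483, nr1d1.L and arntl.S most. Like LOC108696680 and LOC108697746 among the other listed genes, LOC108702483 reached the count filter through unfed libraries alone. Of the other listed genes, klf9.L and creb1.L also reached it only with unfed libraries.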
